A study of Mus musculus with 6 samples.

Results

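The cells described here were the callus cells that carried a high count of MHC class II transcripts together with few or no transcripts that define macrophages, B cells or T cells. A barcode (the sequence tag of 1 droplet) was taken when it had at least 1000 UMIs (unique molecular identifiers, each standing for 1 captured transcript) and at most 10% of them from mitochondrial genes, at least 20 UMIs of H2-Aa, H2-Ab1 and H2-Eb1 together, fewer than 5 of the C1q genes C1qa, C1qb and C1qc, fewer than 2 of the B cell genes Cd79a, Cd79b and Ms4a1, and none of the T cell genes Cd3e and Cd3g. This rule found 1218 cells among 37514 barcodes past the UMI and mitochondrial limits, or 3.25%, out of 46944 deposited barcodes. The cells were thus selected on the counts of the 3 MHC class II genes and of the 8 excluding genes, whose values are given as a description only.

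The study was a single-cell RNA sequencing experiment on the fracture callus of mouse femurs at 14 days post fracture, which asked what changes when the mechanosensitive ion channel Piezo1 is deleted in chondrocytes. There were 3 control libraries, labelled wt and given in the methods as Piezo1 f/f, and 3 knockout libraries, labelled CKO with a genotype entry of Col2CreERT; Piezo3-/- that the series design gives as Col2CreERT; Piezo1-/-. The study's methods describe male mice of 12 weeks, with tamoxifen at 75 mg/kg for 5 days from day 5 in both genotypes, and a femoral fracture in all. The Cre was driven by the Col2a1 promoter, which is active in chondrocytes, so the immune cells described here were not the cells in which the deletion was designed. The libraries held 69361237, 77384286 and 80735192 UMIs in control 1, 2 and 3 and 57626530, 103784364 and 102513582 in knockout 1, 2 and 3.

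MHC class II molecules are pairs of an alpha and a beta chain that hold peptides from ingested proteins and show them to CD4+ T cells. The invariant chain Cd74 guards the groove until H2-DM exchanges it for a peptide, H2-O restrains that exchange, and the coactivator Ciita switches the genes on as a group. Dendritic cells are the leukocytes best known for this task, and their conventional forms fall into a cross-presenting cDC1 type marked by Xcr1 and Clec9a and a more varied cDC2 type, of which a part carries Cd209a and Clec10a. Plasmacytoid dendritic cells, marked by Siglech, are known for type I interferon, and dendritic cells that mature and leave for lymph nodes switch on the chemokine receptor Ccr7.

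The 3 genes of the rule that encode MHC class II chains lie close together on chromosome 17 in the GRCm38 build used for the files. H2-Aa, the alpha chain of I-A, spans chr17:34282744-34287823 on the minus strand, H2-Ab1, its beta chain, spans chr17:34257689-34269419 on the plus strand, and H2-Eb1, the beta chain of I-E, spans chr17:34305867-34316674 on the plus strand. Promoters of this family carry a conserved Y box on which the factors that recruit Ciita assemble. The 110 bases before the start of 2 of the genes that chose the cells are shown 5′ to 3′ on the gene's strand, from RefSeq on GRCm38.p6, with the letters CTGATTGG in capitals.
H2-Aa, chr17:34287824-34287933, minus strand: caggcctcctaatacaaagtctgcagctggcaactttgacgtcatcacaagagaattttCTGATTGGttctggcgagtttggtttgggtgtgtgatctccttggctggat
H2-Eb1, chr17:34305757-34305866, plus strand: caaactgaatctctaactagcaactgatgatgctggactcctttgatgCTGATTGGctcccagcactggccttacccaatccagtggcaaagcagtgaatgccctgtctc
The capitals begin 51 bases before the start of H2-Aa and 62 bases before that of H2-Eb1. The same 8 letters, or CCAATCAG on the other strand, were found within 250 bases before the start in 1258 of 32851 RefSeq promoters (3.83%). Of the 19 MHC class II pathway genes listed here, 13 matched a promoter and 4 held the letters, namely H2-Aa, H2-Eb1, H2-Eb2 and H2-Oa. A match describes these letters only.

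The cells came unevenly from the libraries. Control 1, 2 and 3 gave 114, 423 and 223 cells, and knockout 1, 2 and 3 gave 55, 270 and 133. The median UMI count per cell was 47227 in control 1 and 38169 in knockout 1, against 5319, 6323, 6313 and 10907 in control 2, control 3, knockout 2 and knockout 3. Both replicate 1 libraries stood apart in this way, and the headers of their count matrices give an earlier Cell Ranger version. The fits across genes over all cells of the rule and the shares of cells under it were therefore also computed without them. Any 2 libraries shared between 4 and 36 barcodes.

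A fixed minimum of 20 UMIs is easier to reach in a large cell, and the cells fell into 2 kinds. In 1031 of the 1218 cells (84.6%) the 3 MHC class II genes also made up at least 20 of every 10000 UMIs, and these are called dense cells here. The other 187 cells (15.4%) held the minimum of 20 UMIs within a much larger total and are called sparse cells. Control 1 had 30 dense and 84 sparse cells and knockout 1 had 20 and 35, so sparse cells were 73.7% and 63.6% of the cells there. They were 3.55% and 4.04% in control 2 and control 3, and 3.33% and 26.3% in knockout 2 and knockout 3.

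**Figure D1:**
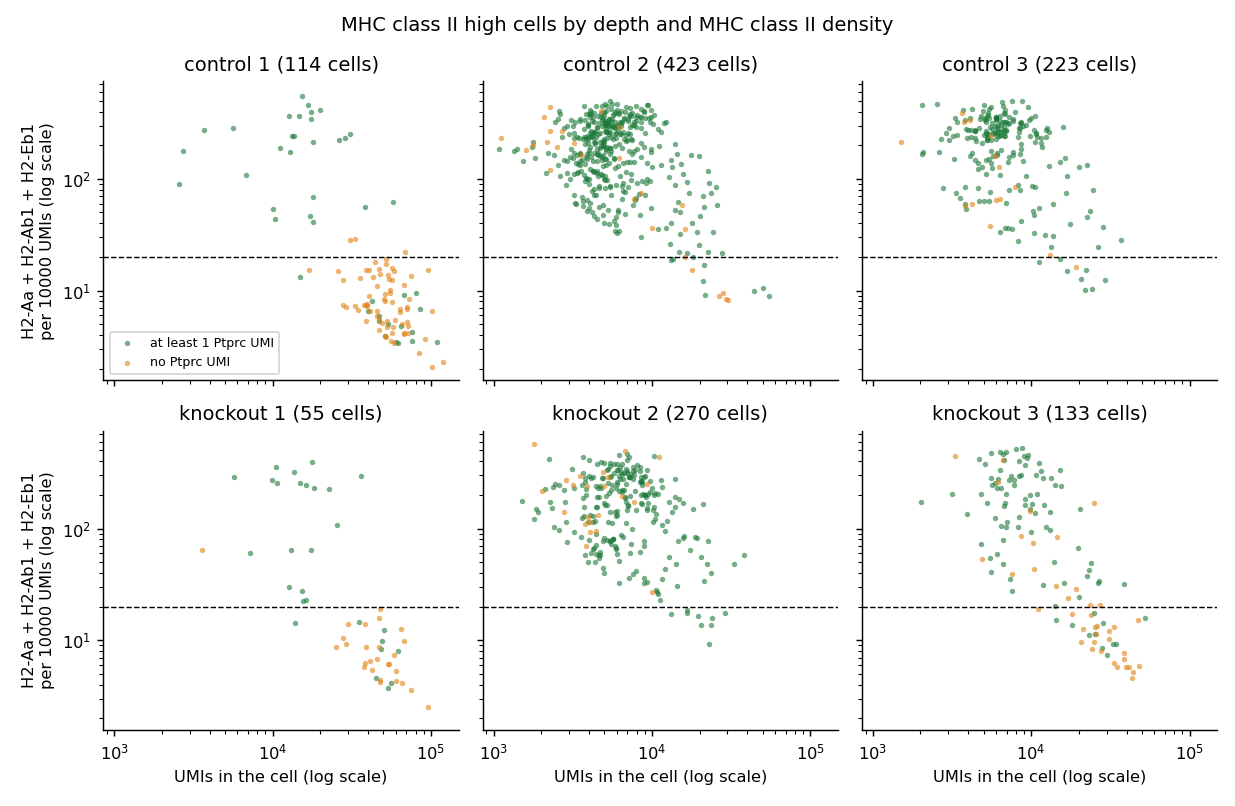
Each panel is 1 library and each point 1 of its MHC class II high cells, with the cell's total UMIs on a log horizontal axis, the UMIs of H2-Aa, H2-Ab1 and H2-Eb1 per 10000 on a log vertical axis, and a dashed line at 20 per 10000. Green points had at least 1 UMI of Ptprc and orange points had none; the orange points gather below the line at high total UMIs, mostly in control 1 and knockout 1.

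Ptprc, which encodes the pan-leukocyte protein CD45, was detected in 954 of the 1031 dense cells and in 62 of the 187 sparse cells. Among sparse cells it was detected in 16 of 84, 9 of 15 and 8 of 9 in control 1, 2 and 3 and in 9 of 35, 9 of 9 and 11 of 35 in knockout 1, 2 and 3, so that nearly all of the few sparse cells of control 3 and knockout 2 had it. Its level in dense cells was 666, 736 and 607 counts per 1000000 UMIs of the summed cells (CPM) in control 1, 2 and 3 and 764, 563 and 319 in knockout 1, 2 and 3. In sparse cells the level was 8.26, 68.9 and 99.9 in the controls and 12.9, 146 and 29.1 in the knockouts. No sparse value reached the lowest dense value. Col2a1, the main collagen of cartilage, had the opposite order in every library, with 65570, 45995, 2230, 67201, 27.0 and 35952 CPM in sparse cells and 14918, 2162, 507, 1558, 17.2 and 10331 in dense cells, in the same library order. Over all sparse cells the 6 stromal and cartilage genes (Col1a1, Col1a2, Col2a1, Acan, Col10a1 and Sparc) stood at 115160 CPM together, against 15433 over all dense cells, and none of the 6 was at 0 in either.

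Sparse cells were not of 1 kind across libraries. Their stromal and cartilage sum was 124804, 88481 and 20459 CPM in control 1, 2 and 3 and 128265, 32443 and 92081 in knockout 1, 2 and 3, lowest in control 3 and knockout 2. The osteoclast list (Acp5, Ctsk, Mmp9, Atp6v0d2, Ocstamp and Dcstamp), genes of the bone-resorbing cell, had another order, with 410.5, 6959 and 4089 CPM in sparse cells of the controls and 98.7, 6406 and 1276 in those of the knockouts. In dense cells that list stood at 204, 659 and 1016 and then at 102, 981 and 574. It was thus several-fold higher in the sparse than in the dense cells of control 2, control 3 and knockout 2, which held 15, 9 and 9 sparse cells.

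The 8 pan conventional dendritic genes (Flt3, Zbtb46, Itgax, Bcl11a, Btla, Tbc1d8, Dpp4 and Kmo) summed to 388.9 CPM over the dense cells and 12.6 over the sparse cells, against 104.4 over classical monocytes and 55.8 over C1q macrophages. Within the dense cells the sum was 121.8 CPM in the 490 cells with no UMI of Itgax, Flt3, Xcr1 or Siglech, of which the first 2 belong to the list, so that the split itself lowers this sum. Those 490 cells held the monocyte list at 13815.6 CPM and the macrophage list at 3889.4, where monocytes held 26906.9 and 2707.7. They also held the cDC2 gene Cd209a at 175 CPM against 8.55 in monocytes, the cDC2 list at 1227.4 against 700.9 and the costimulation list at 232.5 against 126.0. The cDC1 and plasmacytoid lists were lower than in monocytes, at 308.0 against 371.4 and 589.2 against 679.4. Some genes of dendritic cells, as well as genes of monocytes, were thus read in the 490 cells, while the sparse cells are called by the rule alone. Because the cut between them was placed with earlier results in view, the dense cells are described without a test of their own. The tests across genes are given for all cells of the rule and, as an alternative, for a rule that asks for 20 MHC class II UMIs per 10000 in place of 20 UMIs. That alternative took 1197 cells, of which 1031 were the dense cells and the rest had fewer than 20 MHC class II UMIs in total. Classical monocytes that met it moved from their set to the MHC class II high cells. The monocyte set then held 6, 143 and 122 cells in control 1, 2 and 3 and 38, 422 and 33 in knockout 1, 2 and 3.

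Cells close to the limits differed from the bulk of the set. The 90 cells with 20 to 24 MHC class II UMIs had a median of 13591 UMIs per cell, and 61.1% of them had a Ptprc UMI. The 152 barcodes just outside, with 15 to 19 UMIs, had a median of 18238 and 57.2%. At the C1q limit, 41 cells had 4 C1q UMIs and 16 barcodes outside had 5. Removing the barcodes with the highest doublet scores, at 0.8% of a library per 1000 barcodes, took 116 of the 1218 cells, 14 of them sparse.

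Setting the sparse cells aside brought H2-Aa, a gene of the rule, into a narrow range, as the limit on its share of UMIs is bound to do. H2-Aa stood at 676, 6051 and 5811 CPM in all cells of control 1, 2 and 3 and at 1114, 6628 and 3230 in knockout 1, 2 and 3. In the dense cells alone the values were 5947, 6936 and 6414 in the controls and 7302, 7202 and 6322 in the knockouts, a mean of 6687 ± 540 (SD, n = 6). Both replicate 1 libraries were low in the first series. In the second series control 1 was the lowest library and knockout 1 the highest.

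Cd74, the invariant chain gene (chr18:60803848-60812652, plus strand), was not part of the rule. Its level in the dense cells was 13375, 16351 and 14595 CPM in control 1, 2 and 3 and 14581, 22651 and 16816 in knockout 1, 2 and 3. Classical monocytes of the same libraries held 526, 557, 333, 364, 577 and 321, and C1q macrophages held 3342, 3944, 3583, 1120, 2950 and 2866. The 3 cell sets did not overlap for Cd74. Ciita, the coactivator of the family, stood at 135, 90.6 and 191 CPM in the dense cells of the controls and at 204, 218 and 39.2 in those of the knockouts, with knockout 3 lowest. H2-Oa, a chain of the H2-O modulator, ran from 42.8 in knockout 1 to 149 in control 3, with control 1 and 2 at 65.8 and 53.8 and knockout 2 and 3 at 92.5 and 56.4. Both genes outside the rule thus varied several-fold between libraries in the dense cells. As a measure of free RNA, endothelial cells held H2-Aa at 3.55 to 32.0 CPM, Ciita at 0.15 to 0.83 and H2-Oa at 0 to 0.62. Each was under the lowest value of that gene in the dense cells. Barcodes that met the rule or held a Ptprc UMI had been left out of the endothelial cells. Their H2-Aa level was thus limited from above by the rule itself.

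**Figure D2:**
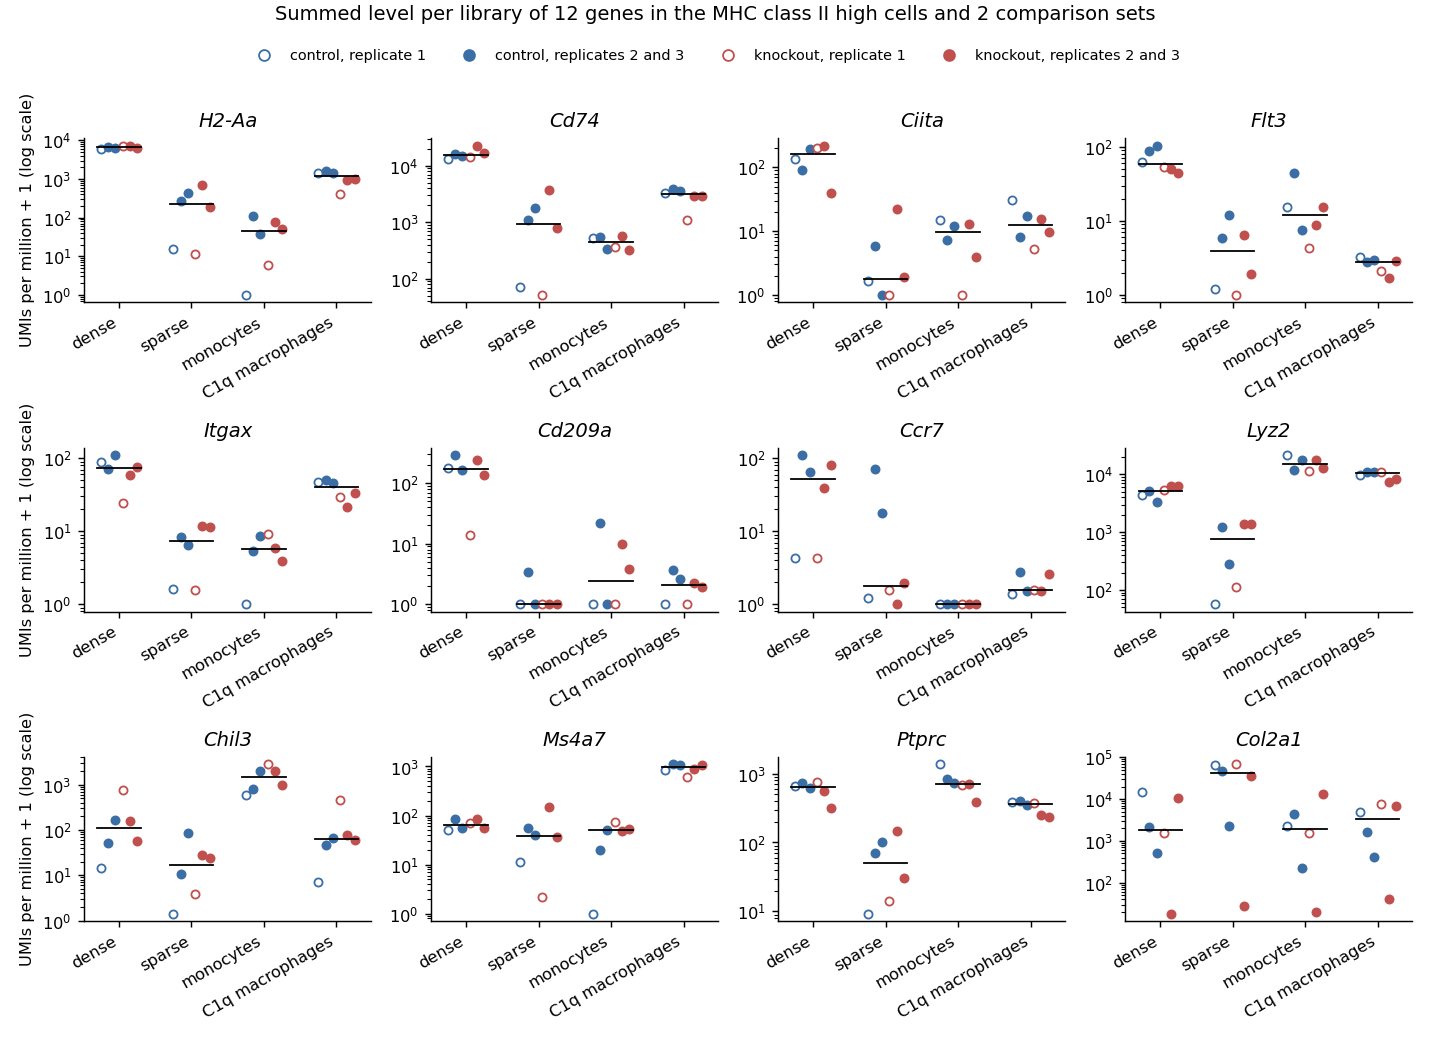
CPM plus 1, on a log axis, of 12 genes in the dense cells, the sparse cells, classical monocytes and C1q macrophages; each point is 1 library, open points are replicate 1 of either group and the line is the median. By median, H2-Aa and Cd74 are highest in dense cells, Lyz2 and Chil3 in monocytes and Ms4a7 in macrophages, while Col2a1 is highest and Ptprc lowest in sparse cells.

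Against classical monocytes the MHC class II high cells showed more of the conventional dendritic genes and less of the inflammatory monocyte and neutrophil genes. Monocytes were taken as barcodes with at least 2 Ly6c2 UMIs, at least 1 Ccr2 UMI and under 20 MHC class II UMIs, with fewer than 5 C1q UMIs, fewer than 3 of the progenitor granule genes Elane, Prtn3 and Mpo and the same B and T cell limits as above, and numbered 6, 150 and 125 in control 1, 2 and 3 and 38, 434 and 34 in knockout 1, 2 and 3. UMIs were summed per library and set, and the 5 libraries with at least 10 cells in both were fitted with edgeR's quasi-likelihood test with the library as a block; adjusted p-values are Benjamini-Hochberg values over all genes tested. Of 10228 genes, 364 (3.56%) passed at an adjusted p under 0.05, 101 as higher (0.987%) and 263 as lower (2.57%). Both sets were cut on transcripts of the same cells, so a gene that varies with MHC class II from cell to cell is not independent of the rule, and these p-values describe how the 2 sets differed over libraries.

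The pathway around MHC class II followed the rule's own genes, and its values are a description for that reason. Of 14 tested pathway genes outside the rule, 7 were higher and none lower, with a median log2 fold change of 2.13 against 0.02 over all genes tested. The log2 fold change was 4.60 ± 0.37 (SE) for Cd74, 5.57 ± 0.30 for H2-Oa, 5.08 ± 0.44 for H2-DMb2 and 3.96 ± 0.28 for Ciita. H2-DMb1 and H2-DMa, chains of the peptide exchanger, differed by 2.92 ± 0.15 and 1.59 ± 0.16.

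Of 8 pan conventional dendritic genes, 4 were higher and none lower, with a median log2 fold change of 1.93. They were Itgax, the integrin chain CD11c, at 3.14 ± 0.52 (SE; edgeR adjusted p = 0.020), Zbtb46, a transcription factor of conventional dendritic cells, at 2.37 ± 0.42 (adjusted p = 0.024), Dpp4 at 2.35 ± 0.40 (adjusted p = 0.021) and Kmo at 1.97 ± 0.39 (adjusted p = 0.039). Flt3 (chr5:147330741-147400489, minus strand), the receptor for the growth factor that dendritic cells depend on, was at 1.89 ± 0.44 and missed the threshold (adjusted p = 0.061). Under the rule of 20 per 10000 UMIs all 8 were higher, with a median of 2.36, and Flt3 was at 2.32 ± 0.38 (adjusted p = 0.0042). In that fit 752 of 8603 genes passed (8.74%), 405 as higher (4.71%) and 347 as lower (4.03%).

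Among subset genes, 2 of 7 cDC1 genes and 2 of 7 cDC2 genes were higher and none lower. Batf3, a transcription factor needed for cDC1, was at 1.73 ± 0.21 (edgeR adjusted p = 0.0076) and Snx22 at 4.42 ± 0.64 (adjusted p = 0.012). Cd209a, a C-type lectin of the DC-SIGN family, was at 4.51 ± 0.46 (adjusted p = 0.0041) and Clec10a, a lectin for galactose-type sugars, at 2.63 ± 0.41 (adjusted p = 0.016). Cd209a in the dense cells was 174, 289 and 166 CPM in the controls and 13.2, 242 and 136 in the knockouts. Knockout 1, with 20 dense cells, was far lower than the others, and the same library was lowest for Clec10a at 6.59 against 115 to 195 elsewhere.

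Of 6 tested genes of mature or migratory dendritic cells, only the actin-bundling gene Fscn1 was higher in the fit of all cells, at 1.67 (edgeR adjusted p = 0.037), and under the rule of 20 per 10000 UMIs it was at 0.98 (adjusted p = 0.063). Its level was 175 CPM over the sparse cells, 56.9 over the dense cells and 25.3 over monocytes. Ccr7 itself was at 0 of 5729871 UMIs in the monocytes and at 591 UMIs in the MHC class II high cells, which is at least 68.8-fold higher when 3 UMIs are taken as the floor over the monocytes. The lectin gene Mgl2 was at least 86.0-fold and the chemokine gene Ccl22 at least 31.3-fold higher on the same floor.

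Costimulatory ligands give the second signal to T cells. None of the 6 tested passed the threshold over all cells, and 5 of the 6 did under the rule of 20 per 10000 UMIs. There Cd86 was higher by 1.20 ± 0.15 (SE; edgeR adjusted p = 0.0011), Cd40 by 1.57 (adjusted p = 0.0064), Cd80 by 1.22 (adjusted p = 0.029), Icosl by 1.64 and Tnfsf9 by 2.00 on the log2 scale. In the fit of all cells Cd86 was at 0.52 (adjusted p = 0.44).

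The monocyte list moved the other way, with 7 of 12 tested genes lower, none higher and a median log2 fold change of -2.05. Chil3, a chitinase-like secreted protein, was at -4.12 ± 0.16 (SE; edgeR adjusted p = 8.7e-05), and Lyz2, the lysozyme of myeloid cells, at -2.12 ± 0.30 (adjusted p = 0.011). Vcan was at -3.20 and the haptoglobin gene Hp at -2.83. Lyz2 was 3311 to 6316 CPM in the dense cells and 11423 to 21600 in monocytes, with no overlap. Of 7 neutrophil genes, 5 were lower and none higher, among them S100a8 at -3.02 ± 0.24 and Retnlg at -3.10.

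The cytokine, chemokine and receptor lists held fewer calls. Of 18 tested cytokine and chemokine genes, only Ccl2, a monocyte attractant, passed, at -2.07 (edgeR adjusted p = 0.033). The chemokine receptor Ccr1 was at -1.67 (adjusted p = 0.038), the RNA sensor Tlr7 at -2.13 (adjusted p = 0.011) and the lectin Clec4e at -1.95 (adjusted p = 0.011). Under the rule of 20 per 10000 UMIs the inflammatory cytokine Il1b was higher by 1.55 (adjusted p = 0.017) and the chemokine Cxcl16 by 2.72 (adjusted p = 0.0045), while Il1b was at 1.00 over all cells (adjusted p = 0.39). None of the 10 cell cycle genes and 1 of the 11 interferon response genes, Rsad2, passed in the fit of all cells, the latter as lower.

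Beyond the lists, the genes with the largest rises that went the same way in every library included Bcl2a1d, a survival gene, at 4.02 ± 0.51 (SE; edgeR adjusted p = 0.0082), the receptor Slamf7 at 3.02 (adjusted p = 0.0022), Scin at 3.02 (adjusted p = 0.030), Tbc1d4 at 3.00 (adjusted p = 0.0087) and the growth factor Bmp2 at 2.95 (adjusted p = 0.016). Of these, Scin and Bmp2 were highest in the sparse cells, with Scin at 192 CPM there, 13.5 over the dense cells and 3.32 over monocytes, and Bmp2 at 251, 18.3 and 5.06. The largest falls were of Mmp8, a neutrophil collagenase, at -4.41, the acute-phase gene Saa3 at -4.30, Wfdc21 at -3.81, Mgst1 at -3.64 and the clotting factor F10 at -3.34. The number of calls depended on single libraries. It was 364 in all and 141 without control 2, 57 without control 3, 82 without knockout 2, 117 without knockout 3 and 982 (9.46% of the genes then tested) without knockout 1, with none of the named genes that were tested there changing direction.

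Against C1q macrophages the MHC class II high cells showed more dendritic genes and less of the tissue macrophage program. These macrophages had at least 20 C1q UMIs under the same B and T cell limits and numbered 106, 405 and 662 in control 1, 2 and 3 and 141, 1056 and 579 in knockout 1, 2 and 3, and all 6 libraries entered the same kind of fit. Of 11647 genes, 1955 (16.8%) passed, 981 as higher (8.42%) and 974 as lower (8.36%), and under the rule of 20 per 10000 UMIs 2673 of 11185 (23.9%) did, 1486 as higher (13.3%) and 1187 as lower (10.6%). All 14 tested macrophage genes were lower, with a median log2 fold change of -3.45 against 0.04 over all genes. C1q chose both sets, so this list too is close to the rule.

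On the log2 scale the chemokine Pf4 was at -5.62 ± 0.35 (SE; edgeR adjusted p = 0.00033), Ms4a7 at -4.37 ± 0.35 (adjusted p = 0.00054) and the lipid carrier Apoe at -3.82 ± 0.43 (adjusted p = 0.0021). Gpnmb was at -4.62, the mannose receptor Mrc1 at -3.76, the folate receptor Folr2 at -3.47, Adgre1, which encodes the antigen of the F4/80 antibody, at -3.44 and the efferocytosis receptor Mertk at -3.11. The high-affinity IgG receptor Fcgr1 was at -1.50 (adjusted p = 0.018), and at -0.38 (adjusted p = 0.24) under the rule of 20 per 10000 UMIs, the single macrophage gene of 14 that did not pass there. Apoe in the dense cells was 1030, 1809, 886, 1983, 1439 and 1148 CPM from control 1 to knockout 3, and 8632 to 15803 in macrophages, with no overlap.

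Of 8 pan conventional dendritic genes, 6 were higher and none lower, with a median log2 fold change of 3.56. Flt3 was at 4.69 ± 0.55 (SE; edgeR adjusted p = 0.0022), the inhibitory receptor Btla at 4.99 ± 0.32 (adjusted p = 0.00033), the transcription factor Bcl11a at 3.81 ± 0.30 (adjusted p = 0.00054) and Zbtb46 at 2.33 (adjusted p = 0.0042). Itgax did not pass over all cells, at 0.09 (adjusted p = 0.92), and was at 1.06 ± 0.18 (adjusted p = 0.0018) under the rule of 20 per 10000 UMIs, under which all 8 were higher.

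Of 9 cDC1 genes, 4 were higher and none lower. Clec9a, a receptor for exposed actin of dead cells, was at 6.41 ± 0.53 (SE; edgeR adjusted p = 0.00059), Xcr1, the receptor for the chemokine Xcl1, at 6.25 ± 0.50 (adjusted p = 0.00054) and Batf3 at 2.26 (adjusted p = 0.0058). Of 7 cDC2 genes, Mgl2 was higher at 1.80 (adjusted p = 0.030) and Sirpa, the receptor for CD47, lower at -1.64 (adjusted p = 0.0028). Cd209a did not reach the count minimum of that fit, and under the rule of 20 per 10000 UMIs it was at 7.28 ± 0.26 (adjusted p = 1.4e-07). Of 7 mature dendritic genes, Fscn1, Il4i1, Socs2 and Cd200 were higher, with Il4i1, an amino acid oxidase, at 2.33 (adjusted p = 0.036). Cd200 stood at 315 CPM over the sparse cells, 44.0 over the dense cells and 46.3 over macrophages, and Socs2 at 114, 29.1 and 22.4. Under the rule of 20 per 10000 UMIs neither passed, with Cd200 at 0.24 (adjusted p = 0.30) and Socs2 at 0.40 (adjusted p = 0.35). Of 15 pathway genes around MHC class II, 7 were higher and 1, the lysosomal protease Lgmn, lower.

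**Figure D3:**
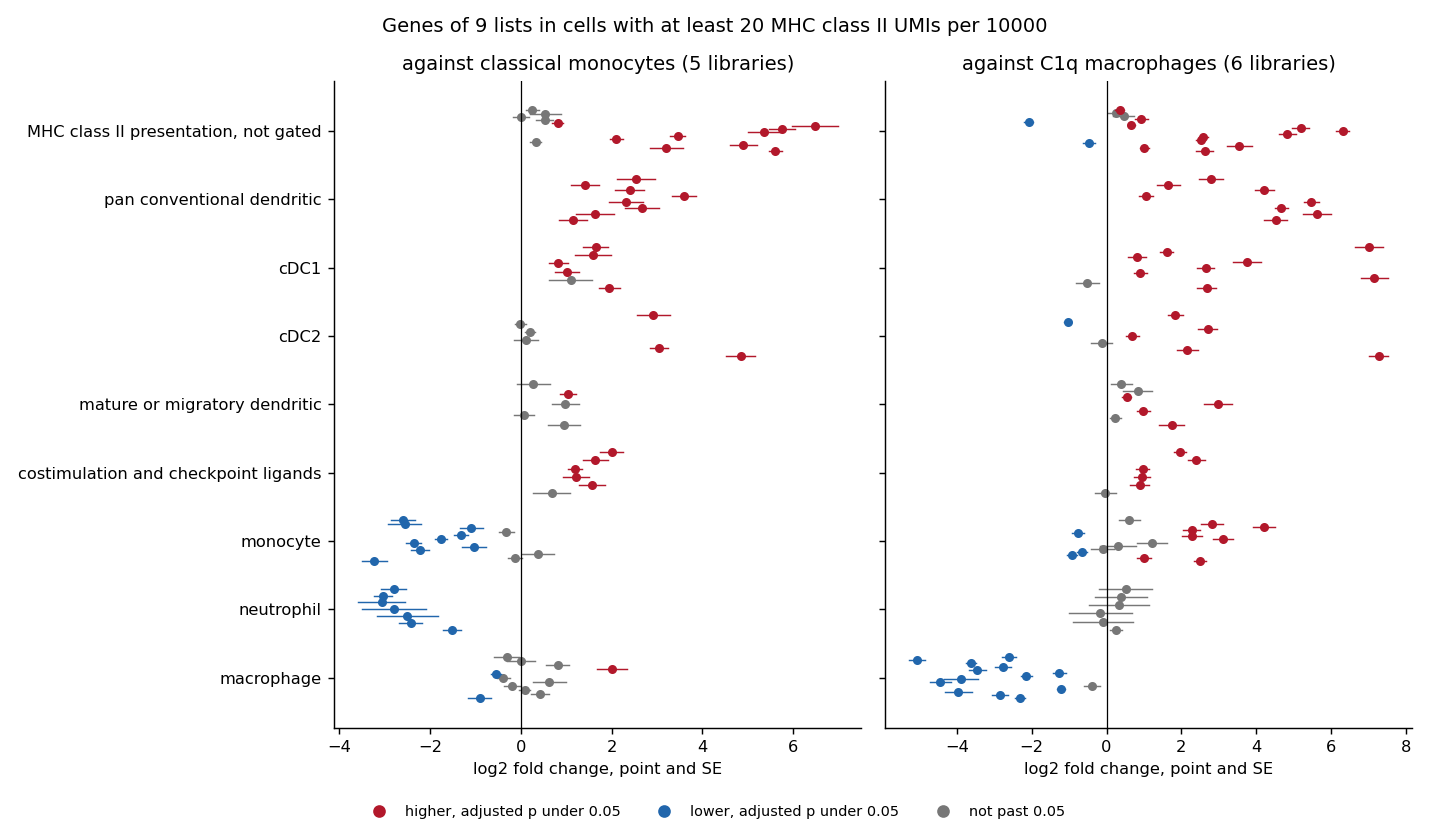
Log2 fold change (point) and its SE (bar) of the tested genes of 9 lists under the rule of 20 MHC class II UMIs per 10000, against classical monocytes over 5 libraries and against C1q macrophages over 6; red and blue mark genes higher and lower at an adjusted p under 0.05 and grey marks the rest. All 8 pan conventional dendritic genes lie to the right in both panels, and the monocyte genes that passed lie to the left against monocytes. All 14 macrophage genes lie to the left against macrophages, and 13 of them passed.

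The monocyte list was mixed against macrophages. Of 14 tested, 3 were higher and 3 lower, with Plac8 at 3.17 ± 0.50 (SE; edgeR adjusted p = 0.0071) and the interferon-induced membrane gene Ifitm6 at 2.14 among the higher. The lower genes were the lysozyme gene Lyz2 at -1.86 (adjusted p = 0.044), Csf1r, the receptor for macrophage colony-stimulating factor, at -1.75 (adjusted p = 0.024) and the fractalkine receptor Cx3cr1 at -1.72 (adjusted p = 0.035). Ccr2, the receptor that draws monocytes out of the marrow, was at 1.34 over all cells (adjusted p = 0.099) and at 2.50 under the rule of 20 per 10000 UMIs. Its level in the dense cells was 536, 548 and 367 CPM in the controls and 744, 534 and 201 in the knockouts. Ly6c2 and Ccr2 UMIs reached the monocyte limits in 152 of the 1218 cells.

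Of 20 cytokine and chemokine genes, 7 were lower and 1 higher than in macrophages. The higher one was Il1b at 2.06 ± 0.44 (SE; edgeR adjusted p = 0.020). Among the lower were the monocyte-attracting chemokines Ccl12 at -3.97, Ccl7 at -3.32 and Ccl2 at -2.05, the anti-inflammatory cytokine Il10 at -2.40 and Cxcl16 at -1.73. Il1b in the dense cells was 411, 1159 and 715 CPM in the controls and 784, 213 and 900 in the knockouts. Ranges of the 2 groups overlapped.

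Outside the lists, rises over macrophages that went the same way in every library included those of Klrd1, a lectin-like receptor, at 6.17 ± 0.51 (SE; edgeR adjusted p = 0.00058), Rnase6 at 3.54, Ifitm1 at 3.03, P3h2 at 2.86, the integrin chain Itgb7 at 2.76, Scrg1 at 2.70 (adjusted p = 0.012) and the decoy receptor Il1r2 at 2.69. The values of Scrg1 and P3h2 came with the sparse cells. Scrg1 stood at 391 CPM over the sparse cells, 21.3 over the dense cells and 19.6 over macrophages, and P3h2 at 363, 22.9 and 13.4. Under the rule of 20 per 10000 UMIs neither passed, with Scrg1 at 0.43 (adjusted p = 0.45) and P3h2 at 1.19 (adjusted p = 0.079). Large falls included those of the chemokine Ccl8 at -5.97, Fcrls at -5.84, the adhesion molecule Vcam1 at -4.17 and the scavenger receptor Stab1 at -4.14. The number of calls was 1955 in all, and 857 without control 2, 1003 without knockout 1, 838 without knockout 3 and 1869 (15.8% of the genes then tested) without both replicate 1 libraries. Of the genes called in the fit of all cells, 1331 were called in the same direction without those 2 libraries.

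The set was split by detection, at 1 or more UMIs, of Itgax, Flt3, Xcr1 and Siglech. Of the 1031 dense cells, 182 (17.7%) had Flt3 alone, 172 (16.7%) Itgax alone, 114 (11.1%) both without the other 2 genes, 53 had Xcr1 and 21 had Siglech in any combination, and 490 (47.5%) had none of the 4. Among sparse cells 168 of 187 (89.8%) had none. Since these are single genes of modest level, a cell with no UMI may still express them.

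Detection of Itgax per library was 14%, 28.8% and 39.9% of the cells in control 1, 2 and 3 and 9.09%, 26.7% and 21.1% in knockout 1, 2 and 3, and of Flt3 13.2%, 34.0% and 36.8% and then 10.9%, 24.8% and 24.8%. In neutrophils, which should hold little of either and had a median of 1948.5 to 6678.5 UMIs per cell, Itgax was detected in 0 to 8.82% and Flt3 in 0 to 0.51% of cells. C1q macrophages showed Itgax in 15.2% to 27.4% of cells and monocytes showed Flt3 in 3.20% to 20%. The low values of control 1 and knockout 1 came with their many sparse cells. In the dense cells alone Itgax was detected in 43.3%, 29.2% and 41.1% in the controls and in 20%, 27.2% and 25.5% in the knockouts, in each library above its macrophages, though in knockout 1 only 20% against 19.1%. Flt3 was detected in 46.7%, 35.0% and 37.9% of the dense cells of the controls and in 30%, 25.3% and 32.7% of those of the knockouts, above the monocytes of each library. After each cell was thinned to 1000 UMIs the Itgax shares were 0.877%, 5.67% and 9.87% in the controls and 1.82%, 5.93% and 3.01% in the knockouts, a difference of -1.89 percentage points (two-sided exact permutation test over 20 assignments, p = 0.7). The thinned Flt3 shares were 4.39%, 7.33% and 9.42% and then 1.82%, 6.67% and 2.26%, a difference of -3.46 points (exact permutation p = 0.2). In these thinned shares over all cells the groups overlapped for both genes, and 0.1 is the smallest p that 3 against 3 libraries allow. In the dense cells alone each knockout lay under every control for Itgax before thinning. After a separate random draw of 1000 UMIs per dense cell the shares were 13.3%, 7.11% and 11.7% against 5.0%, 2.68% and 5.10%. The order of the groups after thinning depended on the draw. In the draw over all cells 1 of the 114 cells of control 1 kept Itgax, against 13.3% of its 30 dense cells here. For knockout 2 it was 16 of 270 cells, against 2.68% of 261 dense cells. For Flt3 too each knockout lay under every control before thinning. After it the dense-cell groups overlapped, at 6.67%, 8.09% and 11.7% against 10%, 5.36% and 5.10%. The dense-cell shares were not tested.

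Xcr1 was detected in 4, 9, 6, 2, 28 and 5 cells from control 1 to knockout 3, 54 in all, of which 1 was a sparse cell. In the summed UMIs of those cells all 10 other genes of the cDC1 list stood higher than in dense cells with none of the 4 genes, which does not show them together in single cells. Clec9a was at 134 CPM, against 1.11. Irf8, the transcription factor that specifies cDC1, was at 1507 against 108, Wdfy4, needed for cross-presentation, at 462 against 37.4, Batf3 at 241 against 36.8 and Naaa at 1008 against 94.1. Cd209a was at 0 UMIs against 175 CPM, and Lyz2 at 577 against 6717. The stromal and cartilage genes summed to 29311.7 CPM in the cells with Xcr1, against 22671.3 in those with none of the 4 genes and 15432.9 over all dense cells. Knockout 2 gave 28 of the 54 cells, and Irf8 was at 1671 CPM in those and at 1362 in those of the other 5 libraries, with Clec9a at 101 and 163.

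With fewer than 3 libraries of 10 such cells, no test across genes was made for Xcr1 or Siglech. The share of cells with Xcr1 was 3.51%, 2.13% and 2.69% in the controls and 3.64%, 10.4% and 3.76% in the knockouts, each knockout above every control (exact permutation p = 0.1, the smallest possible). After thinning the shares were 1.75%, 0.709%, 0.448%, 0%, 2.59% and 0.752% in the same order, overlapping, with a difference of 0.144 points (exact permutation p = 0.8). In the dense cells alone the unthinned shares overlapped too, at 10%, 2.21% and 2.80% in the controls and 10%, 10.7% and 5.10% in the knockouts. In neutrophils the unthinned share was 0 to 0.53%.

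Siglech was detected in 22 cells, numbering 1, 6, 2, 1, 9 and 3 from control 1 to knockout 3. Of the other 10 genes of the plasmacytoid list, 9 stood higher in the summed UMIs of these cells than in dense cells with none of the 4 genes, and Irf7, an interferon regulator, stood at 53.7 CPM against 124.5. Tcf4, the transcription factor that maintains plasmacytoid cells, was at 717 CPM against 182, Bst2 at 1010 against 234, Cox6a2 at 156 against 1.11 and Runx2 at 137 against 40.7. The B lineage list was at 448.8 CPM against 180.4. Outside the list the T and plasmacytoid cell antigen Cd7 was at 507 against 18.5; it was picked after its values were seen. Cd209a was at 312 CPM in the same cells, so dendritic genes of the cDC2 list were present among them too. Knockout 2 gave 9 of the 22 cells, with Cd7 at 792.9 CPM against 302 in the other 5 libraries and Lyz2 at 2915 against 461. Per library, Siglech was also detected in 0 to 3.33% of monocytes, 0 to 1.61% of C1q macrophages and 0 to 2.94% of neutrophils. In control 2 and knockout 3 the monocyte share was above that of the MHC class II high cells. The share of MHC class II high cells with Siglech was 0.877%, 1.42% and 0.897% in the controls and 1.82%, 3.33% and 2.26% in the knockouts. Each knockout was above every control (exact permutation p = 0.1, the smallest possible). In the dense cells alone the groups overlapped, at 3.33%, 1.47% and 0.935% against 5.0%, 3.07% and 3.06%. After thinning of all cells the difference was 0.134 points with overlapping groups (exact permutation p = 1.0).

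**Figure D4:**
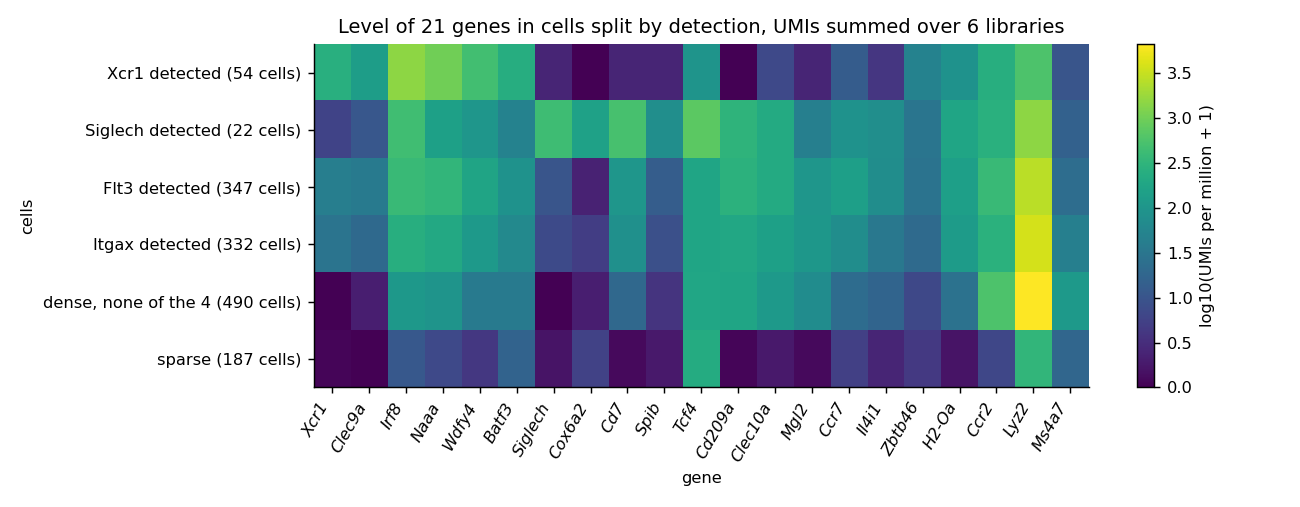
Heat map of log10 of CPM plus 1 for 21 genes (columns) in 6 sets of MHC class II high cells (rows), pooled over libraries: Xcr1-detected (54 cells), Siglech-detected (22), Flt3-detected (347), Itgax-detected (332), dense with none of the 4 genes (490) and sparse (187). The detected sets can share cells; Clec9a, Irf8 and Naaa are highest in the Xcr1 row, Cox6a2, Cd7 and Tcf4 in the Siglech row, and Ccr7 in the Flt3 row.

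Cells with Flt3 numbered 347 and were tested against the other MHC class II high cells in the 5 libraries with at least 10 in both. Only 5 of the 187 sparse cells had Flt3, so most sparse cells of these libraries fell among the other cells. The stromal and cartilage genes summed to 14644.6 CPM in cells with Flt3 and 115160 in sparse cells. Their part in the falls below was not tested. Of 8639 genes, none was higher and 5 were lower (0.0579%), which included the lipid receptor gene Trem2 at -2.66 ± 0.25 (SE; edgeR adjusted p = 0.020), Enpp2, which encodes autotaxin, at -2.35 ± 0.23 (adjusted p = 0.020) and Prkg2 at -2.12 ± 0.23 (adjusted p = 0.036). The numbers changed greatly without the replicate 1 libraries, to 130 higher (1.51%) and 107 lower (1.25%) of 8591 (2.76% in either direction). In that fit Clec9a was at 2.81 (adjusted p = 0.012), Xcr1 at 2.40 (adjusted p = 0.014), Ccr7 at 2.58 ± 0.44 (adjusted p = 0.028), H2-Oa at 2.02 (adjusted p = 0.028), the chemokine Ccl5 at 2.89 ± 0.55 (adjusted p = 0.037) and Il4i1 at 2.43 (adjusted p = 0.037). Without control 2, knockout 2 or knockout 3 no gene passed, and 44 passed without control 3. A cell with more UMIs is more likely to show Flt3, and the part of depth in this split was not tested on its own. The fit after thinning kept only control 2, control 3 and knockout 2 and 1934 genes, and its 41 calls shared 1 with the fit of all UMIs, so that it changed the libraries as well as the depth.

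Cells with Itgax numbered 332, and 12 of the 187 sparse cells were among them. The stromal and cartilage genes summed to 19136.6 CPM in cells with Itgax, and their part was not tested here either. Of 8633 genes 1 passed, Enpp2, lower at -2.93 ± 0.26 (SE; edgeR adjusted p = 0.038; 0.0116%). Without the replicate 1 libraries 8 genes were higher (0.0927%), among them the short-chain fatty acid receptor Ffar2 at 2.26 (adjusted p = 0.016) and Il1r2 at 1.65, and 6 lower (0.0695%), among them the clotting factor F13a1 at -1.91 and Fscn1 at -1.87. No gene passed without any 1 of control 2, control 3, knockout 2 or knockout 3.

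Ccr7 and Cd209a were also read by detection of 1 or more UMIs, without thinning, so these cell counts depend on depth. Ccr7 had a UMI in 3, 34 and 23 cells of control 1, 2 and 3 and in 2, 11 and 21 of knockout 1, 2 and 3, and in no monocyte. Its level in the dense cells was 3.37, 110 and 64.6 CPM in the controls and 3.29, 38.0 and 80.3 in the knockouts, with both replicate 1 libraries far under the other 4. Cells with Flt3 held Ccr7 at 142 CPM and dense cells with none of the 4 genes at 21.6. Cd209a had a UMI in 8, 146 and 55 cells of the controls and in 1, 85 and 24 of the knockouts.

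The comparison of genotypes asked first how common the cells were. They were 4.73%, 5.05% and 2.66% of the passed barcodes in control 1, 2 and 3 and 2.86%, 2.85% and 1.91% in knockout 1, 2 and 3, or 4.15 ± 1.29% against 2.54 ± 0.55% (SD, n = 3 each). The ranges overlapped, and the difference of -1.61 points did not pass the threshold (exact permutation p = 0.3). With 20 MHC class II UMIs per 10000 the shares were 1.25%, 5.80% and 2.88% against 1.04%, 3.26% and 1.59% (exact permutation p = 0.6). With fewer than 2 C1q UMIs in place of fewer than 5, they were 3.07%, 4.64% and 2.45% against 1.82%, 1.91% and 1.39%, each knockout under every control, with a difference of -1.68 points (exact permutation p = 0.1, the smallest possible). That limit took cells unevenly. It kept 74 of 114, 389 of 423 and 205 of 223 cells in control 1, 2 and 3. In knockout 1, 2 and 3 it kept 35 of 55, 181 of 270 and 97 of 133. The part of this loss in the shares under that limit was not tested.

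Counted among MHC class II high cells, monocytes and C1q macrophages only, which leaves out how many stromal and endothelial cells each digestion released, the shares were 50.4%, 43.3% and 22.1% in the controls and 23.5%, 15.3% and 17.8% in the knockouts. The means were 38.6 ± 14.7% and 18.9 ± 4.18% (SD, n = 3 each), and the difference was -19.7 points (exact permutation p = 0.2). Knockout 1 lay above control 3. Under the rule of 20 per 10000 UMIs the shares were 21.1%, 47.0% and 23.5% against 10.1%, 17.3% and 15.4%, each knockout under every control, with a difference of -16.3 points and the smallest p the design allows (exact permutation p = 0.1). With fewer than 2 C1q UMIs they were 39.8%, 41.2% and 20.7% against 16.4%, 10.8% and 13.7%, again each knockout under every control, with a difference of -20.3 points (exact permutation p = 0.1). Leaving out 1 library at a time kept the difference between -28.0 and -13.8 points for the rule of 20 UMIs. A share is relative, so fewer of these cells and more macrophages cannot be told apart here.

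**Figure D5:**
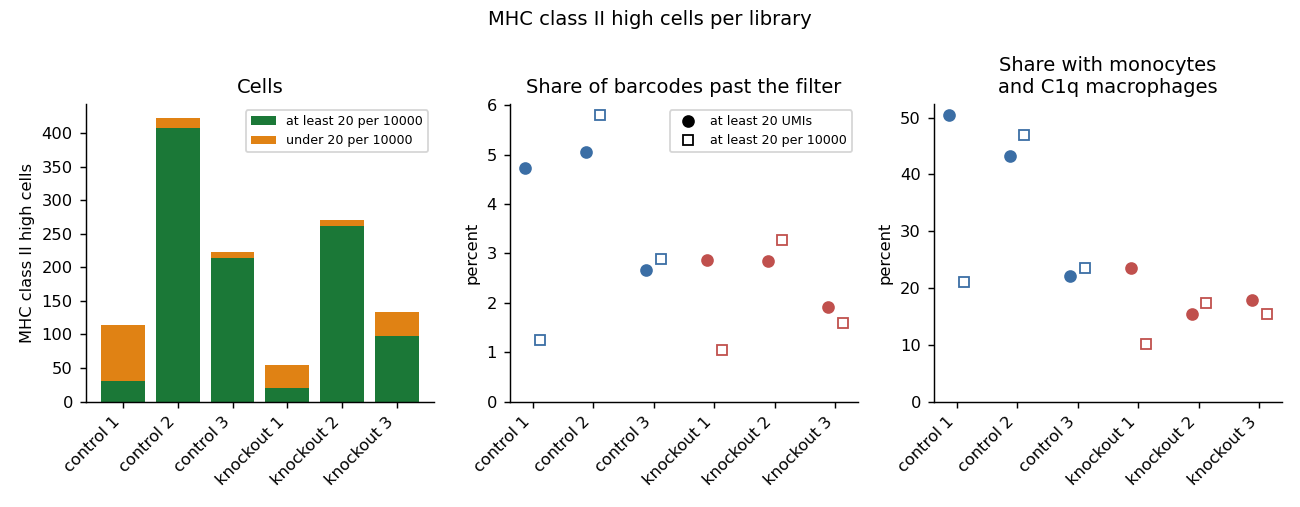
Left, the number of dense and sparse cells in each library as stacked bars; middle and right, the share of MHC class II high cells among passed barcodes and among these cells, monocytes and C1q macrophages, in percent, with controls in blue and knockouts in red. Filled circles are the rule of 20 UMIs and open squares that of 20 per 10000 UMIs; among the myeloid sets the knockout squares (10.1% to 17.3%) lie below the control squares (21.1% to 47.0%), and the circles overlap.

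Within the cells, no gene passed the test between genotypes. Of 10844 genes tested with edgeR on the 6 summed libraries, 0 (0.0%) had an adjusted p under 0.05 and 46 an unadjusted p under 0.05, and DESeq2 also called 0, with 68 unadjusted. Without the replicate 1 libraries, edgeR called 0 of 10824, with 525 at an unadjusted p under 0.05. The spread between libraries left wide errors, so that the log2 difference of knockout from control was 0.22 ± 1.04 (SE) for Cd74, -1.14 ± 0.95 for Flt3, -0.45 ± 1.37 for Cd209a and -0.99 ± 1.54 for Ccr7, all with an adjusted p of 1. Under the rule of 20 per 10000 UMIs, where 0 of 9446 genes passed with 190 unadjusted, the error of Cd74 shrank and its difference was 0.36 ± 0.31. The 6 stromal and cartilage genes together stood at 42033, 7400 and 6832 CPM in the dense cells of control 1, 2 and 3 and at 5616, 16409 and 35067 in those of knockout 1, 2 and 3, overlapping between groups, and their part in these values was not tested.

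The costimulatory genes Cd86 and Cd80 are given as examples of how the replicate 1 libraries bear on the values, chosen after these were seen, and neither passed. Cd86 in the dense cells was 74.2, 198 and 157 CPM in control 1, 2 and 3 and 227, 66.5 and 100 in knockout 1, 2 and 3. The fits were of all cells of the rule, sparse cells included. In them the log2 difference of Cd86 was -1.01 ± 0.90 (SE) over all 6 libraries and -1.35 ± 0.29 over the 4 others (edgeR adjusted p = 0.86). Cd80 in the dense cells was 10.1, 54.9 and 39.8 in the controls and 29.6, 7.80 and 22.0 in the knockouts. Its difference over all cells of the rule was -1.71 ± 1.06 and -2.01 ± 0.36 (edgeR adjusted p = 0.86). In the dense cells the replicate 1 libraries lay in the reverse order for both genes. The part of the sparse cells in the fitted differences was not tested.

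The channel gene Piezo1 was read at a low level in these cells, with 54.0, 38.7 and 49.1 CPM in the dense cells of control 1, 2 and 3 and 13.2, 42.1 and 30.6 in those of knockout 1, 2 and 3. Over all cells of the rule its log2 difference was 0.46 ± 0.59 (SE; edgeR adjusted p = 1), and Apoe stood at 0.00 ± 0.80. The Piezo1 difference was thus positive over all cells, while the dense-cell values leaned the other way. In the dense cells knockout 1 and knockout 3 lay under every control, and knockout 2 lay above control 2. Reads at the 3′ end do not show whether deleted exons were present, so the level does not check the genotype. The share of cells with a UMI of the division genes Mki67 or Top2a was, after thinning, 2.63%, 4.26% and 6.73% in the controls and 1.82%, 11.5% and 6.02% in the knockouts, a difference of 1.90 points with overlapping groups (exact permutation p = 0.7). The thinned share in neutrophils was 3.30% to 8.82%.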

How the data were processed

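Calluses were digested to single cells and captured with the 10x Chromium 3′ v3 kit at a target of 5000 cells. The deposited values were raw UMI counts per gene and barcode, which the authors made with Cell Ranger on GRCm38; the submitters' processing notes list versions 6.1.1 and 6.1.2 and Seurat. Filtering, cell sets and detection splits were recomputed from the counts in Python 3.11.15 with numpy 2.4.6, pandas 2.3.3 and scipy 1.17.1. Permutation tests were computed in Python by listing every assignment. Scrublet scores came from scanpy 1.11.5. A score limit of the caller's own marked 0 barcodes in 4 libraries, so a fixed share was removed as an alternative. Summed counts were fitted in R 4.3.3 with edgeR 4.0.16 (filterByExpr, TMM, glmQLFit, glmQLFTest), and with DESeq2 1.42.0 as an alternative, and the fits were tested on simulated data. Levels are CPM, counts per 1000000 UMIs of the summed set; 3′ counts do not scale with transcript length. Genes used by a rule were left out of the tests between cell sets. Named genes were those of fixed lists plus, per comparison, the 10 largest changes each way (8 and 3 for splits) at an adjusted p under 0.05, 50 CPM and 1 direction in every library. A few genes that met this rule are not reported here. The cells and lists were chosen with earlier results of these data known. Groups came from the sample titles; each library is labelled as a separate sample, and the protocol takes the callus from each mouse. The study's text gives differing numbers of mice for this experiment, so that a library is 1 mouse rests on these labels. Intervals and floors cover counting error only. Other gates, filters, left-out libraries and a replicate block were tried.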

Additional observations from a re-analysis of the deposited data

How the results depend on the processing

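Depth and 3 libraries per group limit these results, and several counts rest on single libraries. Against monocytes the 364 calls became 752 under the rule of 20 MHC class II UMIs per 10000, 224 with fewer than 2 C1q UMIs, 623 with high doublet scores removed, 631 with DESeq2, 1323 with no filter on low counts, 1 without replicate 3 of both groups and 982 without replicate 1 of both (chosen after seeing the data), and 57 to 982 with 1 library left out. Against C1q macrophages the 1955 calls became 355 without replicate 3 of both groups and 838 to 1776 with 1 library left out. The 1 call of the Itgax split became 75 with DESeq2, 780 with no filter on low counts, 16 after thinning, 14 without replicate 1 of both groups and 0 to 14 with 1 library left out; the 5 of the Flt3 split became 523, 1185, 41, 237 and 0 to 237. Thinning also left 3 of the 5 libraries and 1856 and 1934 genes in these splits, and 0 and 1 of the calls were shared. The causes were not tested, except that leaving out libraries, by thinning too, lowers the residual degrees of freedom. Of 44 named genes called against monocytes, 44 were called the same way with DESeq2 and 1 without replicate 3 of both groups; of 77 against macrophages, 77 and 42; none changed direction. Calls between genotypes were 0 in every setting. Leaving out 1 library moved the genotype difference in thinned shares from -4.19 to 0.308 points for Itgax, -5.01 to -2.28 for Flt3, -0.595 to 0.702 for Xcr1, -0.236 to 0.370 for Siglech and -0.621 to 4.21 for Mki67 or Top2a, and the Itgax difference reversed to 0.597 without replicate 3 of both groups. Same-numbered libraries deviated together for numbers 1 and 2 (r = 0.761 and 0.486 across genes) and not for number 3 (r = -0.211), so the deviations did not pair the libraries, although the number goes with the processing, both replicate 1 libraries having the earlier Cell Ranger version. Both replicate 3 libraries listed 55357 features and the rest 55450, and 52081 genes were shared by all. With the replicate block 0 genes passed, 104 at an unadjusted p under 0.05, and both shares of MHC class II high cells had p = 0.25, the smallest that permutation within the pairs allows.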
